A study of Homo sapiens with 24 samples.

Results

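The response of Panc-1 cells to MIST1 was read from 8 of the 24 libraries of the study, which the sample labels assign to the Tet-MIST1 line. Panc-1, an established cell line, was derived from a ductal carcinoma of the human pancreas. Tet-MIST1 cells were stable, puromycin-selected transformants, isolated as individual clones and screened for induction, in which doxycycline (Dox) drives the rat MIST1 open reading frame with a myc tag from the Tet-One plasmid. The 4 Control and 4 Dox libraries shared the line, passage 33 and medium with tetracycline-depleted serum, and Dox cells received 1 µg/ml Dox for 72 h. Tet-One cells, with the same plasmid and no insert, gave 4 Control and 4 Dox libraries at passage 32 and are used for comparison. Since a single transformed line stood for MIST1, features of that clone and a general response to MIST1 cannot be told apart.

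MIST1 is a basic helix-loop-helix (bHLH) transcription factor that binds E boxes, short palindromic DNA motifs, as a homodimer. It is known from cells devoted to secretion, among them the acinar cells of the pancreas, where it maintains the machinery that makes, packs and releases large amounts of protein. Secretory granules and the Rab GTPases that sit on them are classical parts of this program. The comparison of Dox with Control asks which genes of a ductal carcinoma cell respond when the factor is present.

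The libraries held from 33402628 to 42510942 counted reads. Marker levels were summed per library in CPM (read counts scaled to a common library size), which describes the cells and does not identify the line. Of 12 ductal genes, 9 were listed in the table, with sums from 1768 to 1897 CPM in Control and from 1728 to 2171 CPM in Dox libraries. The 4 listed of 6 mesenchymal-type genes had higher sums, from 4956 to 5128 CPM in Control and from 4652 to 5130 CPM in Dox libraries. The 2 listed of 6 immune markers had sums from 249 to 254 CPM in Control and from 197 to 236 CPM in Dox libraries. Of 20 acinar markers, 2 were listed, with sums from 1.02 to 1.21 CPM in Control and from 0.961 to 1.57 CPM in Dox libraries. Human MIST1, the gene BHLHA15, was not among the 13879 genes listed for Tet-MIST1 or for Tet-One, and the induced factor is encoded by a rat sequence, so the induction itself could not be checked in these tables. In Tet-PTF1a cells, BHLHA15 had 16, 8, 2 and 6 counts in Control and 12, 13, 14 and 22 counts in Dox libraries.

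Dox replicate 1 stood apart from its group. Its log2 levels lay off those of its 3 fellow libraries by an SD of 0.226 over 11197 genes, and the other 7 libraries lay off their own groups by 0.0725 to 0.157. Its deviation from the mean of the 4 Dox libraries ran with exon length across genes (r = -0.664), so short transcripts were higher in this library. Dox replicates 2, 3 and 4 deviated the other way (r = 0.536, 0.396 and 0.236). This follows in part from the mean, which includes Dox replicate 1. Genes are not independent replicates, and these correlations only describe the libraries. All results were therefore also computed without Dox replicate 1, and again with the dependence on exon length and on GC content taken out of each library.

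Of 13623 genes tested, 2812 (20.6%) were differentially expressed genes (DEGs), defined as genes with a Benjamini-Hochberg adjusted p (FDR) under 0.05 in edgeR's quasi-likelihood test. Induced DEGs numbered 1617 (11.9%) and repressed DEGs 1195 (8.77%). The directions differed in the size of the changes. Above 2 on the log2 scale there were 7 DEGs and between 1 and 2 there were 48, and each of them was induced. Between 0.5 and 1 there were 231 induced and 119 repressed DEGs, and the remaining DEGs changed by less than 0.5. The same direction was called in the fit over all libraries, without Dox replicate 1 and after removal of the length and GC trends for 1407 of the induced and 1008 of the repressed DEGs. Removal of the trends brought the induced share of all DEGs from 57.5% to 49.4%, with 1958 induced and 2003 repressed. The number of DEGs fell to 1460, 1771 and 1436 when Control replicate 1, 2 or 3 was left out, and repressed DEGs to 475, 692 and 474. When each of the 8 libraries was left out in turn, 872 of the induced DEGs (1617) and 399 of the repressed DEGs (1195) were called every time.

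**Figure D1:**
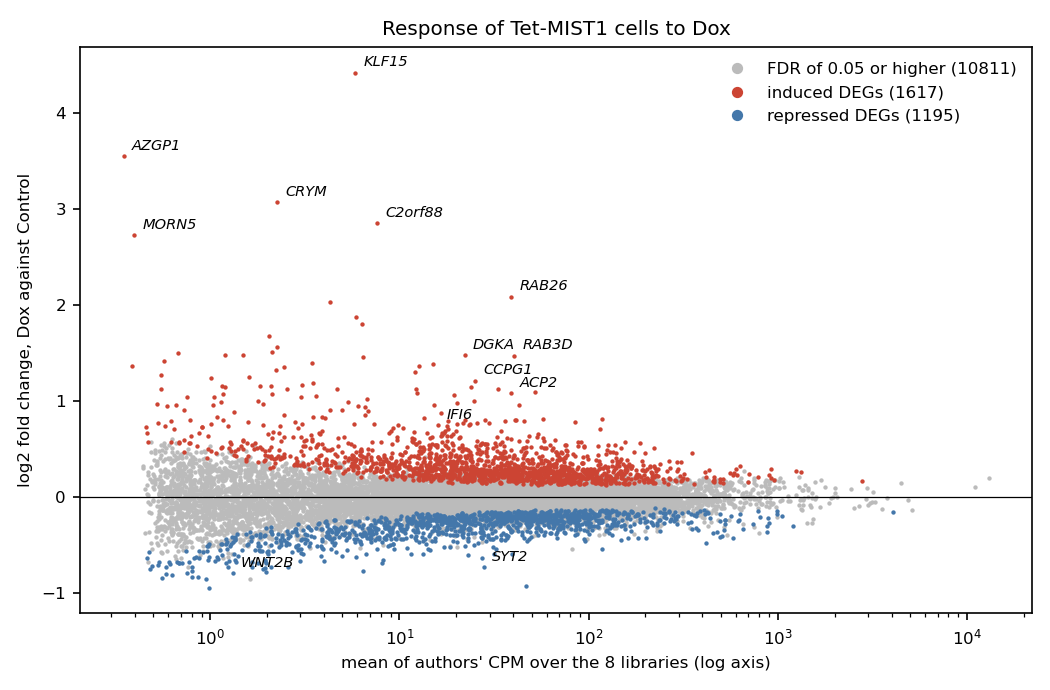
Log2 fold change of Dox against Control (vertical axis) against the mean of the authors' CPM over the 8 Tet-MIST1 libraries (log axis), with 1 point per gene tested. Grey points are genes not called, red points the 1617 induced and blue points the 1195 repressed DEGs, and every called gene beyond 1 in absolute value lies on the induced side.

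Promoters of 4 strongly induced genes are shown because MIST1 binds E boxes such as CAGCTG and CATATG. KLF15 is the gene with the largest change, and C2orf88, RAB3D and TIFA are those of the 25 largest increases whose window held CAGCTG. The windows are the 250 bases before the RefSeq start (GRCh38.p14), placed on hg19 by exact match at chr3:126076252-126076501 (minus strand, KLF15), chr2:191002253-191002502 (plus strand, C2orf88), chr19:11450334-11450583 (minus strand, RAB3D) and chr4:113207061-113207310 (minus strand, TIFA). They are printed 5' to 3' on the strand of the gene, and capitals mark CAGCTG.
KLF15: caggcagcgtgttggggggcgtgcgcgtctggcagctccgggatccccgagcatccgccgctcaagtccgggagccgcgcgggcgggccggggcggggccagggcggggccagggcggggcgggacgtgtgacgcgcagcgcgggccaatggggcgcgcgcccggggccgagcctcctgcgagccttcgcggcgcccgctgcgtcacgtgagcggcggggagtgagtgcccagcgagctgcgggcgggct
C2orf88: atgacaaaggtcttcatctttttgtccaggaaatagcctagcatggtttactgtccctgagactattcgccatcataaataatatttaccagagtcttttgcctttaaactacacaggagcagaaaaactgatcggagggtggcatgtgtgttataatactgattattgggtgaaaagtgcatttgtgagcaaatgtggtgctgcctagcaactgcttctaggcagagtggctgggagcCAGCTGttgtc
RAB3D: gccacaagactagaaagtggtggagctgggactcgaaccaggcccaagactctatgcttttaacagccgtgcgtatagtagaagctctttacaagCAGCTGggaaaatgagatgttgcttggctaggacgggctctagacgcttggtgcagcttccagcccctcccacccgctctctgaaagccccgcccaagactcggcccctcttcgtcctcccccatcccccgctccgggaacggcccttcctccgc
TIFA: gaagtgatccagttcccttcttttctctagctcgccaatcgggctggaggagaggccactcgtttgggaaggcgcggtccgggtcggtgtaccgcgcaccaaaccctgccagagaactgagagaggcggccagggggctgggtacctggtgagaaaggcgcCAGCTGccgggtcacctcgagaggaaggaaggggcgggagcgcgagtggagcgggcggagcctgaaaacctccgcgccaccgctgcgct
CAGCTG began 11 bases before the start in C2orf88, 155 bases before it in RAB3D and 89 bases before it in TIFA. The KLF15 window held no CAGCTG and held another E box, CACGTG, 46 bases before the start. CAGCTG reads the same on both strands and was in 3 of the 20 windows that could be matched among the 25 genes (15.0%). It was in 12.4% of the 10693 windows of genes tested, in 14.6% of those of induced DEGs and in 11.8% of those of repressed DEGs. Among induced DEGs of at least 1 on the log2 scale, 8 of 43 windows (18.6%) held it. CATCTG, searched on both strands, was in 9.29% of the windows of induced DEGs and 7.87% of all windows of genes tested, and CATATG was in 1.01% and 0.916% of them. A motif in a window is a description of its letters and not a site of binding.

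The 25 largest increases were taken among DEGs above a mean of 1 CPM whose 4 Dox libraries all lay above the 4 Control libraries and that stayed DEGs without Dox replicate 1. Non-overlap of this kind, which the choice itself required, was found for 12.8% of all genes tested with Dox above Control and for 14.4% with Dox below. Each of the 25 was also called when any single library was left out and after removal of the length and GC trends. The mean of 1 CPM was taken over Control and Dox libraries. Genes with Control means below 1 CPM, such as SLC43A1, TPD52L1 and DNAJC12, therefore reached it through their Dox libraries. All positions below are hg19 as listed in the table.

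KLF15 (chromosome 3, 126061478 to 126076236, minus strand), a zinc finger transcription factor of glucose and amino acid metabolism, had the largest change of these genes. It was at 0.423, 0.415, 0.601 and 0.467 CPM in Control and at 12.4, 11.3, 10.1 and 10.9 CPM in Dox libraries. The mean rose 23.5-fold, and the log2 fold change was 4.42 (SE 0.126, edgeR FDR 2.10e-09), or 4.36 without Dox replicate 1. Of the Control libraries, only replicate 3 exceeded the 0.5 CPM required for testing, so KLF15 could be tested only because its Dox libraries were higher. The induced direction of this call therefore follows in part from the filter, and the FDR does not allow for it. A related factor, KLF9, rose from 1.24, 1.22, 1.11 and 1.13 CPM to 2.22, 2.71, 2.38 and 2.23 CPM. Of the 16 KLF and SP factors tested, these were the 2 induced members, while KLF13 (log2 fold change -0.31) and KLF6 (-0.22) were repressed.

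Secretory granule and Golgi genes stood among the largest changes. RAB26 (chromosome 16, 2198145 to 2204162, plus strand) encodes a small GTPase of secretory granules. Its levels were 12.95, 14.4, 15.0 and 17.3 CPM in Control and 67.9, 64.4, 60.6 and 59.6 CPM in Dox libraries, a log2 fold change of 2.09 (SE 0.0802, edgeR FDR 1.99e-08). RAB3D (chromosome 19, 11432722 to 11450344, minus strand), the Rab3 GTPase of zymogen granules, went from 22.3, 21.8, 21.2 and 21.0 CPM to 56.5, 60.6, 60.5 and 60.7 CPM. Both sets of Dox values lay far above the Control values and close to each other. HID1, a Golgi protein needed for dense-core granules, had 8.73, 7.93, 8.56 and 8.18 CPM in Control and 21.8, 23.1, 20.05 and 22.2 CPM in Dox libraries. CCPG1 (chromosome 15, 55647421 to 55700708, minus strand), a receptor that delivers endoplasmic reticulum (ER) to autophagosomes, rose from 15.2, 16.2, 14.3 and 15.3 CPM to 35.8, 35.5, 36.7 and 32.9 CPM. C15orf65, which starts at 55700723 on the opposite strand beside CCPG1 and shares no exon bases with it, rose by 1.35 on the log2 scale against 1.21 for CCPG1.

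Membrane transport and lipid genes formed another part of these increases. AQP3, a channel for water and glycerol, had 2.41, 2.28, 2.61 and 2.72 CPM in Control and 9.66, 9.84, 9.32 and 8.26 CPM in Dox libraries. SMPDL3B, a lipid-modulating phosphodiesterase of the cell surface, rose from between 2.36 and 3.10 CPM to between 9.37 and 10.2 CPM. DGKA, the diacylglycerol kinase alpha, which converts diacylglycerol to phosphatidic acid, rose from 11.3, 12.1, 12.003 and 11.5 CPM to 30.6, 32.1, 33.9 and 33.5 CPM. The log2 fold changes were 1.88 for AQP3, 1.81 for SMPDL3B and 1.48 for DGKA. SLC43A1, a transporter of large neutral amino acids, also changed by 1.48 from a low level, 0.659 to 0.870 CPM in Control libraries. ACBD7, of the acyl-CoA binding family, changed by 2.03 and CA5B, a mitochondrial carbonic anhydrase, by 1.31.

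Signalling genes made up much of the remainder. C2orf88, which encodes a small membrane anchor of protein kinase A, rose from 1.86, 1.98, 1.71 and 1.70 CPM to 14.4, 11.7, 13.8 and 13.5 CPM (log2 fold change 2.85). CRYM, mu-crystallin, a thyroid hormone binding protein, rose from 0.398, 0.415, 0.532 and 0.412 CPM to 4.61, 3.62, 3.98 and 3.98 CPM (3.07). Like KLF15, it exceeded 0.5 CPM in Control replicate 3 only and could be tested only because its Dox libraries were higher. TIFA, an adaptor of NF-kappaB signalling, rose from 6.56, 7.75, 7.24 and 6.98 CPM to 19.6, 17.02, 18.7 and 18.2 CPM (1.37). In all 3 genes the Dox libraries formed a tight group well above the Control libraries. GRK4, a G protein-coupled receptor kinase, changed by 1.68, UNC5A, a netrin receptor, by 1.51 and GIPC3, a PDZ protein, by 1.46. RAET1G, a ligand of the NKG2D receptor of natural killer cells, changed by 1.57, the translation repressor PAIP2B by 1.19, the co-chaperone DNAJC12 by 1.25, the ciliary gene MAATS1 by 1.40 and TPD52L1 by 1.48. PCDHA4 changed by 1.33, but 52.5% of its exon bases are shared with other protocadherin alpha genes, so its value is uncertain.

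**Figure D2:**
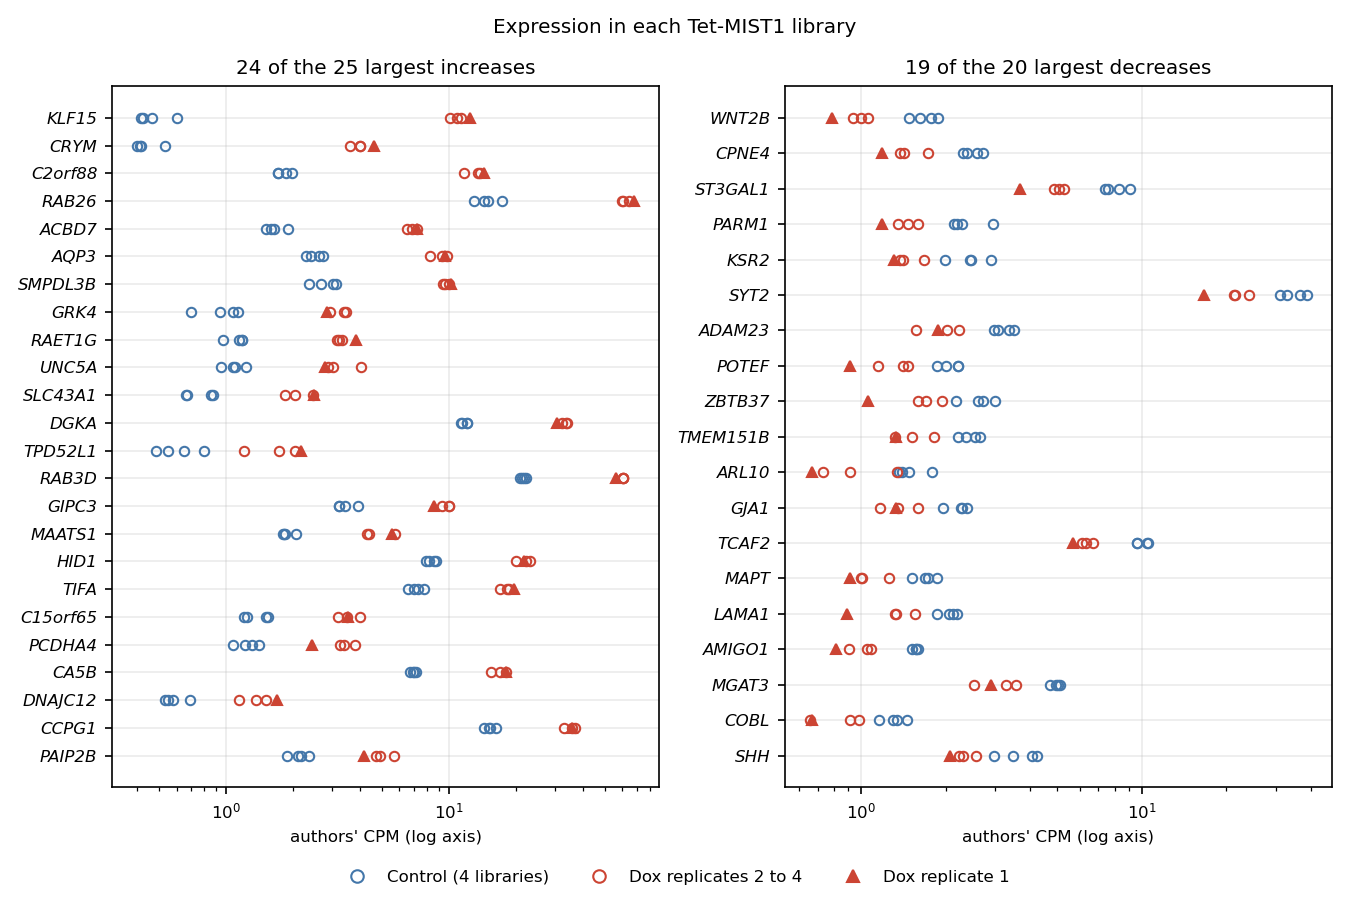
Authors' CPM (log axis) of 24 of the 25 largest increases (left) and 19 of the 20 largest decreases (right) in each Tet-MIST1 library, with blue circles for the 4 Control libraries, red circles for Dox replicates 2 to 4 and a red triangle for Dox replicate 1. The groups do not overlap, as the choice of genes required, and they lie 23.5-fold apart in mean CPM for KLF15 but under 2-fold apart for the decreases.

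At the lowest levels, 3 induced DEGs did not exceed 10 counts in any Control library. AZGP1, zinc-alpha-2-glycoprotein, a secreted protein of glandular epithelia, had 0, 1, 1 and 0 counts in Control and 26, 27, 28 and 23 counts in Dox libraries. The ratio of the summed counts was 56.4 with a 95% exact interval from 15.2 to 472, which covers counting error only. MORN5 had 3, 1, 3 and 4 against 38, 27, 26 and 20 counts, a ratio of 10.9 (5.88 to 22.6). CYP46A1, the cholesterol 24-hydroxylase, had 8, 10, 10 and 4 against 21, 20, 28 and 19 counts, a ratio of 2.98 (1.97 to 4.62). These 3 genes reached the level required for testing in their Dox libraries only. A gene this low in Control libraries could be tested only if its Dox libraries were higher. The induced direction of these calls therefore follows from the filter, and the ratios and intervals do not allow for this choice. None of these 3 genes reached the level required for testing when a Dox library was left out.

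The 20 largest decreases were chosen by the same criteria in the other direction and ran from -0.79 to -0.66 on the log2 scale. Ligands were among them. WNT2B, a Wnt ligand, fell from 1.77, 1.48, 1.87 and 1.62 CPM to 0.788, 1.06, 0.995 and 0.937 CPM (log2 fold change -0.79, SE 0.137, edgeR FDR 0.0019). SHH, the hedgehog ligand, fell from 4.23, 2.97, 4.05 and 3.49 CPM to 2.07, 2.56, 2.22 and 2.31 CPM (-0.66). Dox values lay below Control values in both genes, by less than 2-fold in the means.

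The most abundant of these decreases was SYT2, a synaptotagmin that senses calcium at exocytosis. It fell from 38.9, 32.9, 36.8 and 31.1 CPM to 16.7, 21.6, 21.3 and 24.2 CPM, with the lowest value in Dox replicate 1, and the log2 fold change was -0.73, or -0.63 without that library. In Tet-One cells SYT2 was nearly absent, with means of 0.286 CPM in Control and 0.237 CPM in Dox libraries. Adhesion and junction genes included ADAM23, which binds integrins (-0.73), GJA1, the gap junction protein connexin 43 (-0.68), AMIGO1 (-0.67) and the laminin chain LAMA1 (-0.67). ST3GAL1, the sialyltransferase that caps core 1 O-glycans, fell from 9.05, 7.61, 8.30 and 7.41 CPM to 3.67, 4.88, 5.08 and 5.30 CPM (-0.76). MGAT3, which adds the bisecting N-acetylglucosamine to N-glycans, fell by 0.67. MAPT, the microtubule protein tau, which is listed on more than one contig, fell by 0.67, COBL, an actin nucleator, by 0.67, the kinase scaffold KSR2 by 0.74 and the copine CPNE4 by 0.78. Others were PARM1, POTEF, ZBTB37, TMEM151B, ARL10 and TCAF2, of which POTEF belongs to a family of near-identical paralogs. Of the 20 genes, 18 were called whichever single library was left out, and ARL10 was called in 4 of these 8 fits.

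Dox alone gave no DEG among 13428 genes in Tet-One cells by the same edgeR test, with 401 genes at an unadjusted p under 0.05, and none by DESeq2. The replicates of Tet-One were spread more widely than those of Tet-MIST1, at biological coefficients of variation of 14.4% and 6.58%. Tet-One Dox replicate 1 also stood apart, with an SD of 0.573 from its group and a correlation of -0.721 between deviation and exon length. Without it the coefficient of variation was 4.79% and edgeR called 1 gene, the heme oxygenase HMOX1 (log2 fold change -0.43, edgeR FDR 0.0114), named here for being the single call, while DESeq2 called 108. The Dox response differed between the lines, tested as the interaction term in a fit of 16 libraries, for 231 of 13879 genes (1.66%) by edgeR FDR, and was more positive in Tet-MIST1 for 205 of them. Leaving out Dox replicate 1 of both lines raised this number to 2215 (16%), with 1145 more positive and 1070 more negative in Tet-MIST1. Passage and clone differ between the lines as well as MIST1, and cannot be told apart from it in the interaction.

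Among the 25 increases, 22 passed the interaction test, and 23 did without Dox replicate 1 of both lines. These genes were chosen for large changes in the same Tet-MIST1 libraries that enter the test. A high share of passes therefore follows in part from the choice. KLF15 was at 0.105 ± 0.0511 CPM in Tet-One Control and 0.145 ± 0.0455 CPM in Tet-One Dox libraries (SD, n = 4), and its difference of responses was 4.08 on the log2 scale. RAB26 was at 19.95 ± 0.946 and 21.7 ± 4.63 CPM in Tet-One, and RAB3D at 23.7 ± 1.87 and 24.8 ± 1.06 CPM (SD, n = 4). Their differences of responses were 1.96 and 1.40. CRYM passed with a difference of 2.57 (edgeR FDR 0.0404), but did so in 8 of 20 alternative settings. MAATS1, TPD52L1 and DNAJC12 did not pass, with differences of 1.03, 1.42 and 1.51 (SE 0.341, 0.439 and 0.468). Their group means in Tet-One lay between 0.163 and 0.279 CPM, too low for a test within that line. Not passing therefore does not show a similar Dox response in Tet-One. Of the 20 decreases, only ADAM23 passed (-0.89, edgeR FDR 0.0318), and did so in 5 of 20 alternative settings. Without Dox replicate 1 of both lines 8 passed, among them SHH, ST3GAL1 and MAPT. Only 16 of the 20 were high enough in Tet-One for a test within that line. SYT2, LAMA1, KSR2 and COBL were not, so for these genes not passing does not show a similar Dox response in Tet-One.

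**Figure D3:**
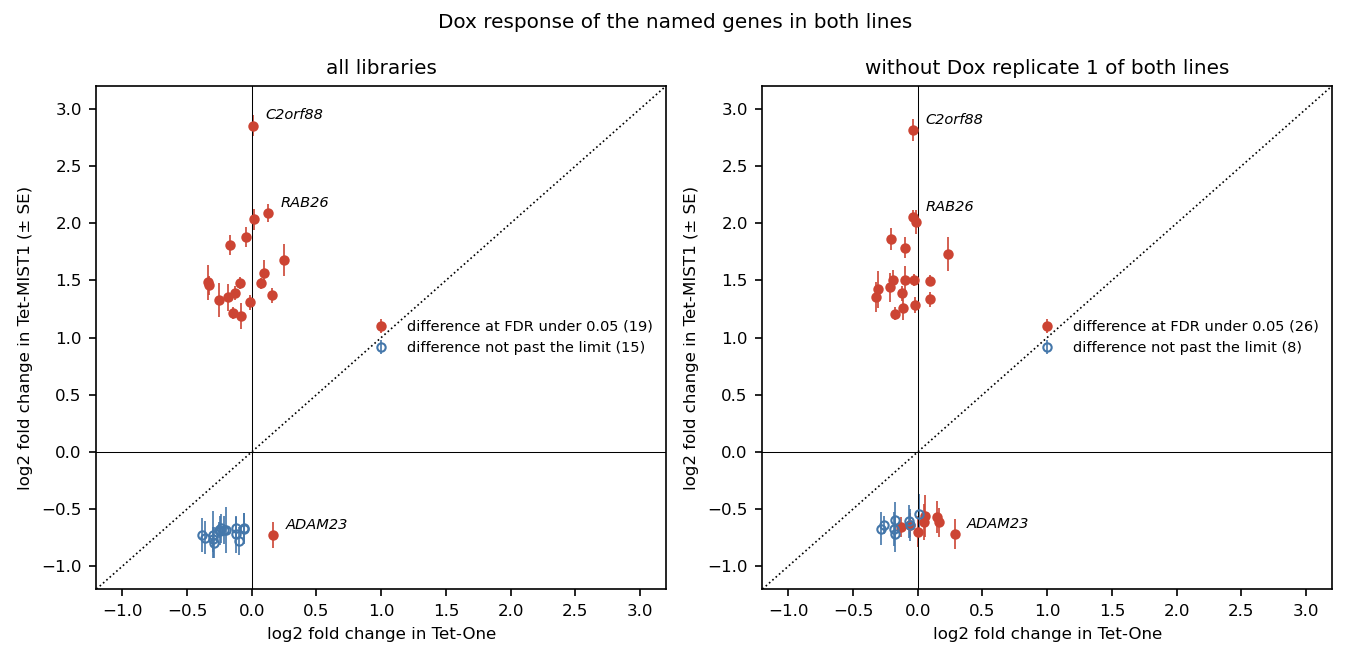
Log2 fold change of Dox against Control in Tet-One (horizontal axis) and Tet-MIST1 (vertical axis, with SE) for the largest increases and decreases that were tested in both lines, with all libraries (left) and without Dox replicate 1 of both lines (right). Filled red points passed the test of the difference between the lines and open blue points did not, the dotted diagonal marks equal responses, and the increases lie near 0 in Tet-One.

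Lists of genes by role, 33 in all, are given below as the number of tested members that were induced or repressed, to be read against 11.9% induced and 8.77% repressed over all genes tested. The median log2 fold change over all genes tested was -0.00. The shares over all genes were 14.3% induced and 11.3% repressed without Dox replicate 1 and 14.4% and 14.7% after removal of the length and GC trends. Members passing the interaction test are to be read against 1.66% of all genes over all libraries. Without Dox replicate 1 of both lines the share to compare with is 16%. Among transcription factors of the bHLH family, 35 were tested, 7 were induced and 5 repressed (median 0.02). ATOH8 rose by 1.08, MXD3, an antagonist of MYC, by 0.81, and MITF and TFEB, regulators of lysosomal genes, by 0.74 and 0.33. In Tet-One cells ATOH8 and MXD3 were also higher with Dox, by 0.35 and 0.51, without being called. Their differences of responses, 0.72 and 0.29, did not pass the interaction test over all libraries (edgeR FDR 0.176 and 0.636). Both passed without Dox replicate 1 of both lines. MXD3 shares 23.1% of its exon bases with PRELID1 on the other strand, and whether strand was used in counting is not given in the sources used here, so reads of both genes could be mixed. MITF was at 1.89, 1.75, 1.73 and 1.65 CPM in Control and at 2.93, 2.84, 2.96 and 3.05 CPM in Dox libraries. TCF3, an E protein partner of bHLH factors, was not called (0.04), and TCF12, another E protein, was repressed (-0.21). HEY1, a Notch effector, fell by 0.51 and the circadian factors ARNTL2, NPAS2 and CLOCK by 0.35, 0.27 and 0.24. Among 13 factors of secretory cells, KLF15, MYB (1.16), CREB3L1 (0.67) and CREB3 (0.18) were induced, and SOX9, a ductal factor, was repressed (-0.18). XBP1, the factor of plasma cells and of the unfolded protein response, was not called (0.11, edgeR FDR 0.136).

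Of 53 Rab genes tested, 7 were induced and 6 repressed (median 0.00), and 2 passed the interaction test, or 10 without Dox replicate 1 of both lines. With the trends removed, 10 were induced and 10 repressed. After RAB26 and RAB3D the next was RAB27A, a GTPase of granule docking, from 17.8, 17.7, 17.3 and 16.97 CPM to 22.0, 22.0, 23.4 and 22.1 CPM (log2 fold change 0.37). RAB3B, a paralog of RAB3D on neurosecretory vesicles, fell by 0.51, and RAB8B by 0.29. Of 53 genes of regulated exocytosis, 7 were induced and 5 repressed (median -0.01). HID1 (1.39), SYTL1 (0.35), STXBP2 (0.32) and VGF (0.20) rose, and SYT2 (-0.73), RPH3AL (-0.47) and SYT17 (-0.40) fell. RPH3AL, an effector of Rab3 and Rab27 GTPases, thus fell where RAB3D and RAB27A rose.

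Entry into the ER was followed through 32 genes of the translocon, the signal recognition particle (SRP) and signal peptidase, of which 11 were induced and none repressed (median 0.12). SRPRB, a subunit of the SRP receptor, rose from 78.0, 80.1, 72.8 and 80.6 CPM to 121, 101, 114 and 111 CPM (log2 fold change 0.53). SEC61B, a subunit of the channel, rose by 0.47 and SEC62 by 0.35, while the pore subunit SEC61A1 was not called (0.03). The list median in Dox replicate 1 was 0.242 above the Control mean, against 0.028, 0.107 and 0.078 in the other Dox libraries. Without Dox replicate 1, 10 members were induced and the median was 0.06, and 9 were induced in all 3 fits. In Tet-One cells the list median was 0.09, or -0.05 without Dox replicate 1 of that line. The interaction test was passed by 1 member over all libraries and by 12 without Dox replicate 1 of both lines.

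Of 37 genes of the oligosaccharyltransferase and of the glycan precursor, 9 were induced and none repressed (median 0.05). ALG9, a mannosyltransferase of the lipid-linked precursor, rose from 26.1, 27.1, 26.3 and 26.7 CPM to 41.6, 45.04, 49.1 and 46.9 CPM (log2 fold change 0.79, SE 0.0547, edgeR FDR 3.29e-06). The subunits of dolichol phosphate mannose synthase, DPM1, DPM2 and DPM3, rose by 0.54, 0.53 and 0.33, and ALG5, which makes the glucose donor, by 0.47. The subunits of the transferase that attaches the glycan were not called, with log2 fold changes of 0.05 for STT3A, -0.03 for STT3B, 0.02 for RPN1 and -0.05 for RPN2. With the trends removed, 7 members were induced and 6 repressed (median 0.01), and 7 were induced in all 3 fits. Without Dox replicate 1, 11 were induced and 2 repressed, and STT3A (0.12) was then among the induced. The list median in Tet-One cells was 0.07, or -0.03 without Dox replicate 1 of that line. In the Golgi, 12 of 76 members were induced and 5 repressed, with FUT4 (0.51), COG6 (0.33) and MGAT1 (0.33) in one direction and ST3GAL1 and MGAT3 in the other. Of 94 coat and cargo receptor genes of vesicles between ER and Golgi, 10 were induced and 6 repressed, led by YIPF3 (0.45) and SEC16B (-0.48), but with the trends removed 14 were induced and 15 repressed.

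Of 41 ER chaperones and folding enzymes, 5 were induced, among them FKBP14 (0.33), ERO1B (0.33) and P4HB (0.24), and DNAJC10 was repressed (-0.18). HSPA5, the chief chaperone of the ER lumen, was not called (0.15, edgeR FDR 0.0575), and it was called without Dox replicate 1 (0.13). Of 39 genes of ER-associated degradation, 9 were induced, with VIMP (0.43), DERL2 (0.31), HERPUD1 (0.26) and the ligase SYVN1 (0.25) in front, and NPLOC4 was repressed (-0.15). Among 24 sensors and outputs of the unfolded protein response, 5 were induced and 1 repressed, or 7 and 4 with the trends removed. EIF2AK3, the sensor kinase PERK, rose from 16.4, 17.3, 16.5 and 15.8 CPM to 21.0, 21.5, 20.9 and 20.8 CPM (0.36). The other 2 sensors, ATF6 (-0.00) and ERN1 (-0.41, edgeR FDR 0.203), and the factor ATF4 (0.01) were not called.

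Targets of ATF4, which supply amino acids, had 14 induced and 1 repressed of 47 members tested (median 0.06), and all 4 Dox libraries had a higher list median than every Control library. The margin was narrow, with list medians from 0.042 to 0.071 in Dox and from -0.031 to 0.038 in Control libraries. ALDH1L2, a mitochondrial folate enzyme, rose from 13.7, 13.3, 14.2 and 12.9 CPM to 17.9, 32.8, 28.4 and 27.3 CPM, with the lowest Dox value in replicate 1 (log2 fold change 0.98, or 1.13 without it). PYCR1, a proline synthesis enzyme, rose from 182, 182, 185 and 191 CPM to 264, 262, 242 and 277 CPM (0.51). ATF3, a stress-induced factor, rose from 3.95, 4.61, 3.91 and 4.70 CPM to 8.05, 6.84, 6.54 and 7.47 CPM (0.76). In Tet-One cells ATF3 was at 15.1 ± 3.27 CPM in Control and 8.87 ± 1.06 CPM in Dox libraries (SD, n = 4), which was not called, and the difference of responses was 1.51. Over the whole list the median in Tet-One was -0.21, against 0.01 over all genes. ASNS, CHAC1 and TRIB3, widely used readouts of ATF4, were not called (0.11, 0.06 and 0.04), and SESN2 was repressed (-0.26).

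Lysosomal genes were induced in 21 and repressed in 3 of 78 tested (median 0.08). All 4 Dox libraries had a higher list median than every Control library, and without Dox replicate 1 there were 32 induced. ACP2, the lysosomal acid phosphatase, rose from 26.1, 25.5, 23.4 and 25.3 CPM to 58.2, 49.0, 50.9 and 53.3 CPM (log2 fold change 1.09, SE 0.0629, edgeR FDR 7.41e-07). GGH, gamma-glutamyl hydrolase of folates, rose from 39.3, 43.1, 42.4 and 42.5 CPM to 83.9, 64.5, 75.0 and 68.6 CPM (0.81). Hydrolases such as CTSD (0.23), CTSS (0.41), CTSC (0.40), GLA (0.31), ARSA (0.29) and NEU1 (0.22) were induced as well, while CTSB (0.02) and LAMP1 (0.04) were not called. IGF2R, the receptor that sorts hydrolases to lysosomes, was repressed (-0.41, or -0.27 without Dox replicate 1). The proton pump of lysosomes had 6 induced and 1 repressed of 21 subunits, and 4 induced in all 3 fits. Its median was 0.05, or 0.03 without Dox replicate 1 and -0.02 with the trends removed. In Tet-One cells its median was 0.05, or -0.04 without Dox replicate 1 of that line. No subunit passed the interaction test over all libraries, and 2 did without Dox replicate 1 of both lines.

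Autophagy genes were induced in 13 and repressed in 3 of 55 tested (median 0.05). Beside CCPG1, the proteases that process ATG8 proteins stood out. ATG4A rose from 20.8, 21.9, 20.1 and 21.6 CPM to 47.1, 39.0, 50.4 and 46.6 CPM (log2 fold change 1.13) and ATG4C from 12.3, 14.0, 13.7 and 13.2 CPM to 25.9, 20.9, 23.2 and 21.7 CPM (0.79). CALCOCO1, an ER-phagy receptor, rose by 0.58, and SEC62 and RTN3, which also serve ER-phagy, by 0.35 and 0.21. FAM134B, a further ER-phagy receptor, fell by 0.39, and BECN1 (0.05) and SQSTM1 (-0.05) were not called. CCPG1, ATG4A and ATG4C also passed the interaction test, with differences of 1.35, 1.13 and 0.67.

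Interferon-stimulated genes had a median of 0.15, with 18 induced and none repressed of 53 tested. IFI6 rose from 11.1, 12.2, 12.1 and 12.7 CPM to 19.3, 23.6, 18.4 and 18.9 CPM (log2 fold change 0.75), and HERC5, the ligase of ISG15, from 13.5, 15.5, 15.2 and 15.5 CPM to 24.5, 23.8, 24.2 and 21.4 CPM (0.66). IRF7 rose by 0.55, ISG15 and IFIT1 by 0.43 each, and IRF9, a subunit of the factor that answers type I interferon, by 0.22. MX1 (-0.08) and OAS1 (0.11) were not called. The list median differed among Dox libraries, at -0.069, 0.333, 0.119 and 0.072 relative to the Control mean, so Dox replicate 1 lay below every Control library and the others above. Without Dox replicate 1 the median was 0.22 with 24 induced, and with the trends removed it was 0.13 with 22 induced and 1 repressed. No member passed the interaction test over all libraries, and 16 did without Dox replicate 1 of both lines. Of 30 genes of antigen presentation and immune ligands, 4 were induced, among them RAET1G, RAET1E (0.49) and B2M (0.30). Of 21 chemokine and cytokine genes, none was induced and LIF was repressed (-0.20).

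**Figure D4:**
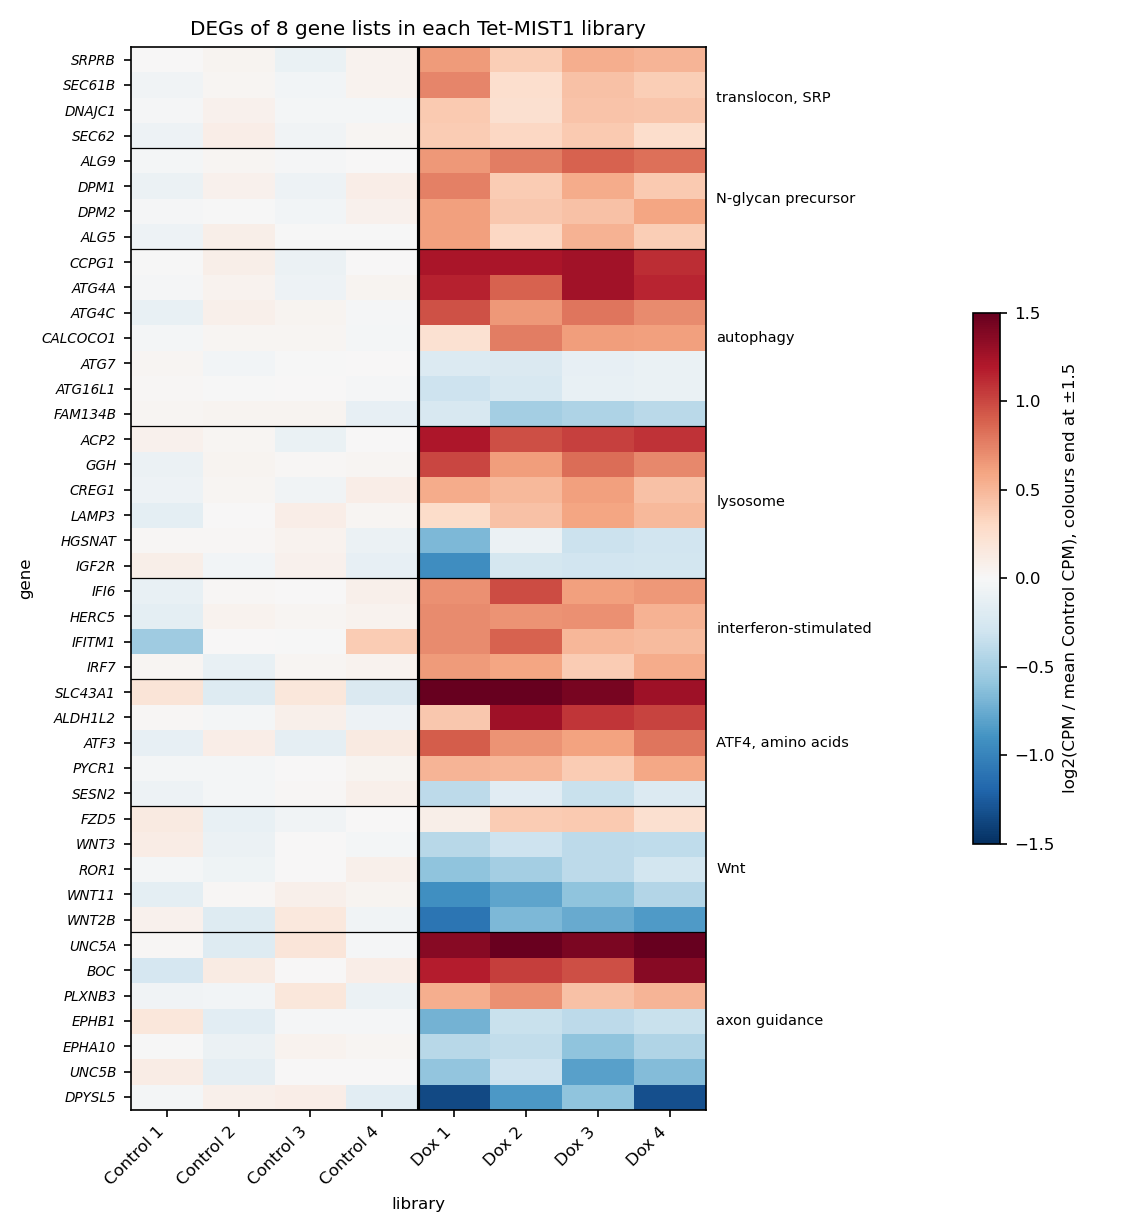
Level of the named DEGs of 8 lists in each Tet-MIST1 library, as log2 of CPM over the mean Control CPM, with colours ending at 1.5 in either direction. The Control columns are near 0, except for IFITM1, and the Dox columns keep their sign within each gene, with weaker colour for CALCOCO1 and ALDH1L2 and stronger colour for IGF2R in Dox replicate 1.

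Cell cycle genes moved in small steps. Of 27 inhibitors and G1 regulators, 9 were induced and 1 repressed (median 0.08), with CDKN2D (0.59), BTG2 (0.56) and CDKN2C (0.36), which restrain the cycle, and CCNE2 (0.32), which promotes it, in front. CDKN1A was not called (0.03). Of 63 genes of mitosis, 13 were induced and 1 repressed, led by SPC25 (0.49), PTTG1 (0.34) and CENPA (0.34), and of 57 replication genes 8 were induced and 3 repressed. With the trends removed, the repressed members of the 3 lists numbered 2, 4 and 7. None of these 3 lists had a member that passed the interaction test over all libraries. Without Dox replicate 1 of both lines 11, 13 and 7 members passed, in a setting where 16% of all genes did.

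In metabolism, 11 of 46 genes of cholesterol and fatty acid synthesis were induced and 2 repressed (5 with the trends removed), with SC5D (0.40), FDPS (0.39) and HMGCS1 (0.29) rising. Of 40 genes of glycolysis and hypoxia, 8 were induced, among them NDRG1 (0.42), and 4 repressed, among them EPAS1 (-0.39) and HIF1A (-0.19). SLC39A8, a zinc and iron importer, rose from 3.53, 4.06, 3.49 and 3.16 CPM to 7.41, 6.20, 7.38 and 7.41 CPM (log2 fold change 0.99), and BMP6, a signal of iron stores that shares 15.4% of its exon bases with TXNDC5 on the other strand, fell by 0.42. In all, 3 of 25 iron genes were induced and 4 repressed.

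Subunits of oxidative phosphorylation and ribosomal proteins had medians of 0.13 and 0.15, with 74 of 77 and 77 of 78 members above 0. Induced members numbered 11 and 6, and none was repressed. Without Dox replicate 1 there were 15 and 10 induced, with 0 and 1 repressed, and with the trends removed 10 and 5 induced, with 2 and 3 repressed. Both lists have short transcripts, with median exon lengths of 951 and 843 bases against 3192 over all genes. Their medians were 0.353 and 0.353 above the Control mean in Dox replicate 1, against 0.001 to 0.086 and 0.006 to 0.091 in the other Dox libraries. Without Dox replicate 1 the medians were 0.05 and 0.06, and with the trends removed 0.03 and 0.03. In Tet-One cells the medians were 0.22 and 0.21, or -0.05 and -0.08 without Dox replicate 1 of that line. No member of either list passed the interaction test over all libraries, and 10 and 19 did without Dox replicate 1 of both lines. COX5A had 172 CPM in Dox replicate 1 and 133, 148 and 145 CPM in the others, against 111 to 120 CPM in Control libraries.

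Wnt signalling had the largest repressed share of the 33 lists in each of the 3 fits, with 14 of 47 members repressed and 1 induced (median -0.09). Ligands (WNT2B, WNT3, WNT10B and WNT11), receptors (ROR1, ROR2, FZD6, FZD7 and FZD8) and transcription factors (TCF7 and TCF7L1) were among the repressed, as were the inhibitors SFRP1 and ZNRF3 and the ligand carrier WLS. WNT3 fell from 14.8, 12.9, 13.8 and 13.4 CPM to 10.3, 11.1, 10.5 and 10.5 CPM (log2 fold change -0.36), and its response differed from that in Tet-One by -0.41 (edgeR FDR 0.0266). WNT11 fell by 0.64 and ROR1 by 0.42, and FZD5 rose by 0.29. AXIN2, a common target gene of the pathway, was not called (0.12), nor was CTNNB1, beta-catenin (-0.12, edgeR FDR 0.0514). The list median was -0.147 in Dox replicate 1 and -0.038, -0.111 and -0.101 in the other Dox libraries, against -0.042 to 0.040 in Control libraries. In all 3 fits 12 members were repressed. WNT3 was the 1 member that passed the interaction test over all libraries. Without Dox replicate 1 of both lines 8 of the 47 members passed, in a setting where 16% of all genes did.

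Axon guidance and neuronal genes had 12 repressed and 6 induced of 53 tested (median -0.11). DPYSL5 (-0.94) and the netrin receptor UNC5B (-0.55) fell, while UNC5A (1.51) and BOC (1.13) rose. BOC, a co-receptor of hedgehog, went from 1.34, 1.73, 1.60 and 1.70 CPM to 3.60, 3.28, 3.11 and 4.10 CPM, whereas its ligand SHH was among the repressed. Matrix genes had 11 repressed and 7 induced of 58, with LAMA1 (-0.67) and COL17A1 (-0.67) on one side and FBLN5 (1.05) and WISP2 (0.84) on the other. FBLN5, fibulin 5, rose from 2.39, 2.07, 2.41 and 2.55 CPM to 4.85, 5.01, 5.00 and 4.66 CPM. Junction and polarity genes had 6 repressed (10 with the trends removed), among them GJA1, PARD6G (-0.46), CLDN1 (-0.31) and OCLN (-0.29), and 4 induced of 36, among them CLDN3 (0.62), LLGL2 (0.53) and CLDN4 (0.30). Calcium store and flux genes had 7 repressed and 4 induced of 33, and ATP2A3, a calcium pump of the ER, rose by 0.34. Ciliary genes had 7 induced, among them MAATS1, DNAH7 (0.99) and TTLL7 (0.88), and 6 repressed of 61, against 6 and 8 without Dox replicate 1 and 7 and 11 with the trends removed. In these 5 lists the medians of at least 3 Dox libraries were below every Control library. Dox replicate 1, in which long transcripts were lower, was among them and had medians from -0.198 to -0.117. Over all genes tested, the medians of all 4 Dox libraries were also below every Control library, at -0.017 to -0.009 against -0.001 to 0.002. Such an order of the libraries is therefore not particular to these lists.

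**Figure D5:**
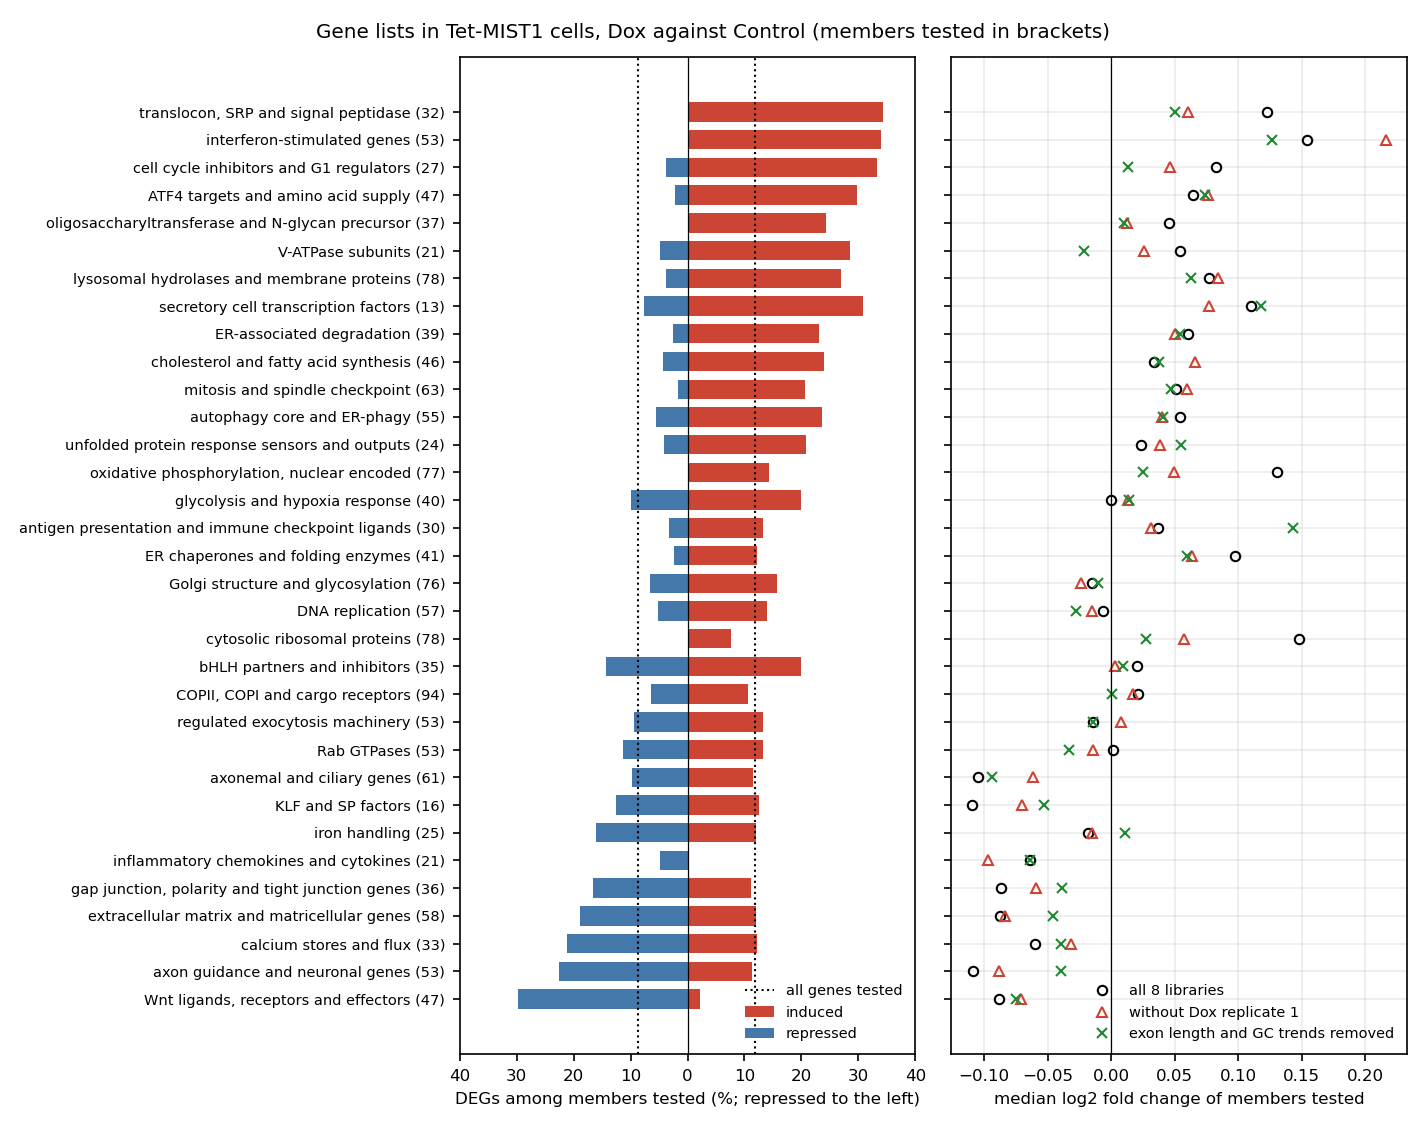
Percentage of the tested members of each list that were induced (red, to the right) or repressed (blue, to the left), with dotted lines at the values over all genes tested, and the median log2 fold change of each list (right) with all 8 libraries, without Dox replicate 1 and after removal of the exon length and GC trends. The medians of oxidative phosphorylation and ribosomal proteins move from 0.13 and 0.15 to 0.05 and 0.06 without Dox replicate 1, and those of lysosomal genes and ATF4 targets stay between 0.06 and 0.08.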

How the data were processed

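Polyadenylated RNA of 8 Tet-MIST1 libraries (4 Control, 4 Dox) was analysed, with 8 Tet-One libraries for comparison. Reads were aligned to hg19 with TopHat, and the submitters' processing notes also name HTSeq, DESeq and edgeR, without versions. The annotation and the use of strand in counting are not given in the sources used here. The authors deposited, per line, raw read counts per gene, and the methods of the study state a minimum of 0.5 CPM in 4 samples. Tet-MIST1 and Tet-One list the same number of genes, 13879, of which 13623 reached this within the Tet-MIST1 libraries. They also deposited CPM values with scaled library sizes and their own comparison of Dox with Control (log2 fold change, p-value and FDR), which was not used. The authors' CPM values are printed for Tet-MIST1, and CPM of Tet-One were recomputed from the counts with TMM factors. Among the gene names, 20 had turned into dates and were kept as such.

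Dox and Control counts were fitted in edgeR 4.0.16 (R 4.3.3) and tested by quasi-likelihood, with TMM factors, robust estimation, a prior count of 2 and the Benjamini-Hochberg adjustment, after dropping genes that did not exceed 0.5 CPM in 4 or more libraries. The 4 replicates are described as biological replicates in the methods of the study. All pairs of libraries within a group differed beyond counting noise (chi-square divided by its degrees of freedom, 2.14 to 44.9). Trends with exon length and exon GC content (GRCh37 sequence at the listed exons) were removed as splines with 5 degrees of freedom, given to edgeR as offsets. List medians per library are over log2(CPM + 0.01) relative to the Control mean. Alternatives were DESeq2 1.42.0, library size scaling, the likelihood ratio test, no filter, at least 10 counts in every library, a replicate block, the trends removed and each library left out, with 2 combinations added after the data were seen.

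Named genes were the 25 largest increases and 20 largest decreases by the criteria in the text, induced DEGs not above 10 counts in any Control library, and in each list up to 4 DEGs per direction that stayed DEGs without Dox replicate 1, besides members that define a list by role. Further DEGs of a list named beside these, such as CTSD or ISG15, were chosen after their values were seen. Members and lists were chosen with earlier results of these data known. Values of some genes are not reported here. No set test was run. On simulated counts, the test recovered 100% of 200 genes changed by 1 on the log2 scale among 13589, and 68.0% of 200 changed by 0.3 among 13593 in Tet-MIST1. The changed genes were drawn from well-counted genes only, with the same spread for every gene. No library stood apart and no trend with exon length was simulated, so these shares need not hold for the real libraries or for genes of low counts.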

Additional observations from a re-analysis of the deposited data

Results flagged for a closer look

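In 24 of 446 groups of 4 libraries examined, 1 library lay far from the others in CPM, by Dixon's criterion. Chance alone gives this in about 1 in 20 groups, close to the share seen here. In Dox groups the library apart was Dox replicate 1 for RAB3D (56.5 CPM), RAB39B (3.08), EPHB1 (7.61), MORN1 (9.53), CAMK2G (79.9) and IGF2R (304.5). It was Dox replicate 2 for RAB42 (1.73 CPM), IFI6 (23.6), SLC39A8 (6.20) and PPP1R15B (64.2), and Dox replicate 3 for RAB27A (23.4 CPM). In Control groups it was replicate 1 for ULBP3 (4.82 CPM), HERC5 (13.5) and COX7B (195.1), and replicate 2 for IRF7 (11.2 CPM) and DNAJC1 (18.3). It was Control replicate 3 for CRYM (0.532 CPM) and LIF (116.3), and Control replicate 4 for MAATS1 (2.06 CPM), HERPUD1 (23.2), ATP6V0B (85.4), FAM134B (4.83), MYCL (1.29) and CLOCK (39.5).

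The Dox response differed between Tet-MIST1 and Tet-One for 50 of the 223 named genes, by the edgeR interaction of line and Dox at FDR under 0.05, with 1.66% of all genes tested called. The named genes were DEGs of the same Tet-MIST1 libraries, so a higher share than over all genes follows in part from the choice. The differences given here, Tet-MIST1 minus Tet-One on the log2 scale, were largest for KLF15 (4.08), C2orf88 (2.84), CRYM (2.57), ACBD7 (2.01), SMPDL3B (1.97), RAB26 (1.96), AQP3 (1.92), UNC5A (1.84) and SLC43A1 (1.81). They were 1.78 for GIPC3, 1.62 for FBLN5, 1.58 for PCDHA4, 1.56 for DGKA, 1.53 for C15orf65, 1.51 for HID1 and for ATF3, 1.46 for RAET1G and 1.42 for GRK4. Values from 1.40 to 1.00 were found for RAB3D (1.40), CCPG1 (1.35), CA5B (1.31), PAIP2B (1.26), TIFA (1.21), KLF9 (1.14), ATG4A (1.13), BOC (1.12), DNAH7 (1.06), TTLL7 (1.03), SLC39A8 (1.02) and ACP2 (1.00). Smaller positive differences were found for ALG9 (0.90), WISP2 (0.88), MITF (0.87), NDRG1 (0.76), MYCL (0.71), ATG4C (0.67), PYCR1 (0.63), FUT4 (0.49), SC5D (0.48), HMGCS1 (0.47), EIF2AK3 (0.46), LLGL2 (0.45), SEC23B (0.44), FKBP14 (0.41), YIPF3 (0.40) and COG6 (0.39). The response was more negative in Tet-MIST1 for ADAM23 (-0.89), PARD6G (-0.78) and WNT3 (-0.41). The lines also differ in clone and passage, which cannot be told apart from MIST1.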

How the results depend on the processing

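No named gene changed its direction under any alternative. The number of Tet-MIST1 DEGs, 2812, ranged from 1436 to 3770 when each library was left out in turn, and was 3219 with DESeq2, 3443 with the likelihood ratio test, 2721 with library size scaling and 2799 without a filter on low counts. It was 3336 with the length trend removed, 3961 with the length and GC trends removed, 3482 without Dox replicate 1 and 3495 with both the length trend and Dox replicate 1 removed, the last added after the data were seen. Leaving out Control replicate 1, 2 or 3 gave 1460, 1771 and 1436. Over all alternatives, the log2 fold changes of named genes kept their direction and their call in 3437 comparisons and lost the call in 336, most often without Control replicate 1 (58 genes), with the replicate block (54) and without Control replicate 3 (51). Of those of the 45 largest changes that are named, only ARL10 lost its call, in 5 settings. Counts of induced or repressed members of lists stayed within 1.5 times in 830 comparisons and moved further in 292.

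With the replicate number as a block, there were 1463 Tet-MIST1 DEGs and 83 genes with a different response in the lines. The deviations of same-numbered Control and Dox libraries correlated at -0.399, -0.242, 0.049 and -0.283. The deviations themselves ran with exon length, at r = 0.361 in Control replicate 1 and -0.664 in Dox replicate 1. These correlations therefore cannot decide whether the numbers pair the libraries. Whether a call lost under the block is a weaker effect was not tested.

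The number of genes with a different response in Tet-MIST1 and Tet-One, 231, ranged from 144 to 1930 when each library was left out. Its lowest values, 144, 144 and 145, came from omitting Control replicate 1, 3 or 4 of Tet-MIST1 and its highest, 1930, from omitting Dox replicate 1 of Tet-One. It was 499 with DESeq2 and 2215 when Dox replicate 1 of both lines was omitted, which was also added later.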
